A study of Mus musculus with 2 samples.

Results

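Macrophages rich in Cd163 transcripts were described among single cells of mouse skin wounds on day 6 after injury. A cell was called Cd163-high when it had at least 500 detected genes, under 10% of its unique molecular identifiers (UMIs, counted transcript molecules) from mitochondrial genes, and 5 or more raw Cd163 UMIs. Its UMIs of Ccl8, Gas6 and Igf1 had to sum to under 10, and those of Stfa3 and Fst to under 5. The rule found 160 of 2878 filtered cells. Of these, 154 came from the diabetic library, or 8.77% of its 1755 filtered cells (95% exact binomial interval 7.49% to 10.2%). The other 6 came from the non-diabetic library, or 0.534% of its 1123 filtered cells (0.196% to 1.16%). The 6 genes of the rule chose the cells, so their levels, and any difference between Cd163-high and other cells of the same library, are given as a description without a test.

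The diabetic library held wound monocytes and macrophages of diabetic mice, and the non-diabetic library held those of non-diabetic mice. Each was 1 library of the 10x Chromium 3′ assay, made from cells pooled from 2 mice. The labels give no strain name, diabetic model, age or sex, and they speak of the pooled mice as 2 per strain. Diabetes, strain and library therefore cannot be told apart, and no difference between the libraries could be tested. The barcodes of the diabetic library carried 31730014 UMIs and those of the non-diabetic library 17559986. Cd163-high cells had a median of 21505 UMIs in the diabetic library, ranging between 4476 and 48066, and of 8934.5 in the non-diabetic library. The other filtered cells had medians of 15988 UMIs in the diabetic and 14098 UMIs in the non-diabetic library. The 2 libraries shared 6 barcode sequences, none of them in a Cd163-high cell. Levels are given as CPM, the UMIs of a gene per 1000000 UMIs summed over the cells named. All intervals below are 95%, treat each UMI or cell as independent, and cover counting error only.

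Cd163 is the macrophage receptor that takes up haemoglobin bound to haptoglobin, and the haem it brings in is broken down by haem oxygenase. Macrophages that carry it are found in many tissues, often along vessels, and its transcription is raised by glucocorticoids and interleukin-10. In skin wounds, macrophages derive both from monocytes that enter from the blood and from cells that were resident before the injury.

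The pan-macrophage genes were present in these cells. Csf1r, the receptor for the macrophage growth factor, had a UMI in 100% of the 154 diabetic Cd163-high cells. Thinned to 2000 UMIs per cell, it was found in 69.7% of the Cd163-high cells and 59.2% of the other diabetic cells. Mrc1, the mannose receptor, was found in 61.0% of the Cd163-high and 29.8% of the other diabetic cells after the same thinning. Of the 12 macrophage genes listed, 6 were at least 1.5-fold higher in Cd163-high than in other diabetic cells and 0 were at least 1.5-fold lower, with a median log2 ratio of 0.60. Over all 11659 genes measured, 11.4% were that much higher and 16% that much lower, and the median was -0.02. Classical monocyte genes ran the other way, with 0 of 10 higher, 6 lower and a median of -0.91. Against the 586 other diabetic cells with 10 or more C1q UMIs, a comparison chosen after seeing the data, the macrophage list's median was 0.09. C1qa, C1qb and C1qc belong to this list and also chose those cells, so this median depends in part on the choice. None of the 8 dendritic and 7 T and NK cell markers had a UMI in any Cd163-high cell. Langerhans cell markers had a UMI in 32 of the 154 diabetic cells, endothelial markers in 31 and B cell markers in 23. At least 5 UMIs were reached in 0, 1 and 10 cells for these lists. Among the 1601 other diabetic cells they had a UMI in 189, 220 and 435. Neutrophil genes are described below. Fibroblast markers had a UMI in 22 of 154 cells and reached 5 UMIs in 2 of them. Their summed level ran between 0 and 836 CPM in Cd163-high and 0 and 3964 CPM in other diabetic cells. The part of cells of other types in the results was not tested.

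The threshold on Cd163 cut a continuous range of counts. The gene lies on chromosome 6 (ENSMUSG00000008845, chr6:124304656-124330527, + strand, mm10). Among diabetic cells that met both exclusions, 1258 had no Cd163 UMI, 107 had 1 or 2, and 20 had 3 or 4. On the inner side of the threshold, 12 cells had 5 or 6. In 26 further cells with 5 or more Cd163 UMIs the sum for Ccl8, Gas6 and Igf1 was 10 or more, and in 10 the sum for Stfa3 and Fst was 5 or more, with 1 cell failing both. The sum of Ccl8, Gas6 and Igf1 was 7 to 9 in 5 cells just inside that limit and 10 to 12 in 4 just outside it. Cd163-high cells held 5520 of the 7400 Cd163 UMIs of filtered diabetic cells, or 74.6%, and 49 of 129, or 38.0%, in the non-diabetic library. Per cell, diabetic members held between 5 and 134 Cd163 UMIs with a median of 26.5.

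Detection of the markers was also read in dendritic-type cells, defined by 5 or more UMIs of Cd209a and Klrd1, because such cells were assumed to lack them. Their median depth was 19750 UMIs, close to the 21505 of Cd163-high cells. At 2000 UMIs per cell, Cd163 was found in 84.6% of Cd163-high cells, 3.48% of all other diabetic cells and 2.97% of the 37 dendritic-type cells. Without thinning these shares were 100%, 11.8% and 16.2%. Cd163 chose the cells, so these shares describe the rule. In the same 3 sets of cells, Folr2 was found in 31.9%, 3.86% and 0% after thinning, where 0 of 37 cells allows a share of up to 8.11%. Nnmt was found in 16.2%, 1.67% and 0% of them, and Fxyd2 in 23.8%, 4.24% and 0.946%. Saa3 was found in 93.4%, 54.9% and 13.1%, so its transcript was also present outside the Cd163-high cells. Without thinning Saa3 had a UMI in 98.1%, 84.9% and 67.6%, so at full depth the dendritic-type cells did not lack it. Thinning left out 0 Cd163-high and 25 other diabetic cells below that depth.

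**Figure D1:**
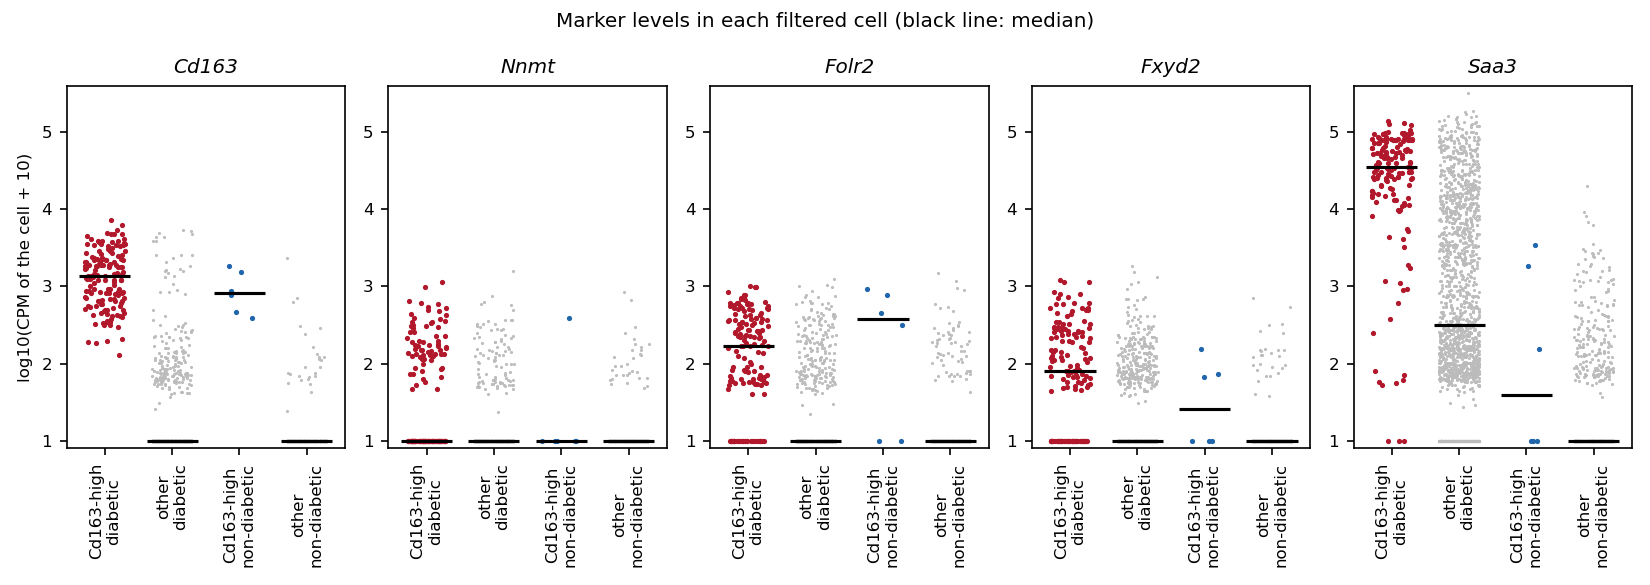
Level of each marker gene in every filtered cell, as log10 of the cell's CPM plus 10, for Cd163-high and other cells of the diabetic and the non-diabetic library (points: cells; black lines: medians). Saa3 was high in most diabetic Cd163-high cells and also in a part of the other diabetic cells, while Nnmt was detected in 45.5% of the diabetic Cd163-high cells.

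Saa3 (ENSMUSG00000040026, chr7:46711998-46715700, - strand), an acute-phase serum amyloid A protein that macrophages make in inflamed tissue, was found in nearly all Cd163-high cells. Its summed level was 45481 CPM in Cd163-high cells and 12708 CPM in other diabetic cells, a log2 ratio of 1.84 (1.83 to 1.85). Across the 154 cells the level lay between 0 and 138180 CPM with a median of 34960, and 127 cells reached 10000 CPM. In 14 Cd163-high cells it stayed under 1000 CPM, and 3 of these had no Saa3 UMI. High Saa3 was not restricted to these cells. Of the other diabetic cells, 9.99% exceeded the Cd163-high median, and 75 of these 160 cells had 5 or more Stfa3 and Fst UMIs. All 169 diabetic cells with 5 or more Stfa3 and Fst UMIs together had 45590 CPM of Saa3, near the Cd163-high value, and the other diabetic cells without these 169 had 8035 CPM.

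The 250 bases upstream of the RefSeq starts of Cd163 and Saa3 are shown (GRCm38.p6, which the build name mm10 refers to) because Cd163 defines the cells and Saa3 was found in nearly all of them. Capitals mark matches to the C/EBP pattern TTNNGNAA, searched on both strands. C/EBP factors are regulators of acute-phase and myeloid genes. Cd163 lies on chromosome 6 (+ strand; upstream bases chr6:124304401-124304650) and Saa3 on chromosome 7 (- strand; chr7:46715677-46715926).
Cd163: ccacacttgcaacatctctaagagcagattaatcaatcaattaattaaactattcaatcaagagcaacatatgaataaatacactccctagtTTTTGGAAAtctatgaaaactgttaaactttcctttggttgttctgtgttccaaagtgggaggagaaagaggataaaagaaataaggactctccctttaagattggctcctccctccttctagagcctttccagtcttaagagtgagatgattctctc
Saa3: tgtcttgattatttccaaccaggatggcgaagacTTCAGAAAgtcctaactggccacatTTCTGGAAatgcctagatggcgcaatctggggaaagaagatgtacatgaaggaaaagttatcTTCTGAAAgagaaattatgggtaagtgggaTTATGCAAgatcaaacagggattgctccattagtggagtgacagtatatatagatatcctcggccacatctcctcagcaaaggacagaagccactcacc
The Saa3 window held 4 matches, starting 216, 191, 129 and 99 bases before the start. The Cd163 window held 2 that overlap by all but their end bases, starting 158 and 157 bases before it. Of 27025 mouse promoter windows of the same length, 36.9% held at least 1 match and 0.629% held 4 or more. Folr2 was also in the promoter table, which covered 3 of the 5 markers, and its window held 0 matches. The STAT pattern TTCNNNGAA, present in 7.18% of windows, and the NF-kB pattern, present in 3.75%, were in none of the 3 windows. The patterns were chosen after the levels were seen, and a match is a string of letters and not a shown binding site.

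The other marker genes were found in fewer of the Cd163-high cells. Folr2 (ENSMUSG00000032725, chr7:101839988-101857194, - strand), a folate receptor of macrophages, had 245 CPM in Cd163-high cells and 33.2 CPM in other diabetic cells, a log2 ratio of 2.89 (2.75 to 3.02). It was detected in 79.2% of Cd163-high cells, 13.1% of other cells and 0% of the dendritic-type cells. Folr2 shares 479 bases at 99.8% identity with the gene model Gm10602, so its count is uncertain. Nnmt (ENSMUSG00000032271, chr9:48591877-48605153, - strand), which methylates nicotinamide, had 121 CPM in Cd163-high cells and 12.1 CPM in other cells, a log2 ratio of 3.33 (3.12 to 3.54). Nnmt was unevenly spread, since 13 of the 154 cells held 50% of its UMIs. Fxyd2 (ENSMUSG00000059412, chr9:45399669-45410278, + strand), a regulatory subunit of the sodium pump, had 187 CPM in Cd163-high cells and 36.1 CPM in other cells, a log2 ratio of 2.38 (2.23 to 2.52). Of 5 measured pump and FXYD genes, Fxyd2 was the only 1 past 1.5-fold. Of the 18 genes measured for folate, nicotinamide and methyl-group metabolism, 5 were at least 1.5-fold higher and 3 lower, with a median of -0.02. The shares over all genes measured were 11.4% higher and 16% lower. The list as a whole thus sat at the median of all genes while Folr2 and Nnmt stood high. The size of the differences depended on the cells compared, since against the 586 other cells with C1q the log2 ratio was 1.71 for Folr2, 1.74 for Fxyd2, 1.93 for Tmem8, 3.22 for Nnmt and 2.42 for Saa3.

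Within the cells that met both exclusions, marker levels were in general higher in cells with more Cd163 UMIs, though not from each bin to the next. Median Saa3 was 196 CPM in cells without Cd163, 1581 CPM at 1 or 2 UMIs and 17364 CPM at 3 or 4. It was then 17354, 25990, 33870 and 67797 CPM at 5 to 9, 10 to 24, 25 to 49 and 50 or more Cd163 UMIs. Summed over the cells of a bin, Saa3 was 5899, 19221 and 45595 CPM in the 3 bins below the threshold and 26172, 37817, 42998 and 65999 CPM in the 4 bins above it. The sum was thus lower just above the threshold than just below it, where 20 cells make up the bin. Summed Folr2 was 17.5, 35.7 and 25.7 CPM in the 3 bins below the threshold and 81.1, 171, 311 and 333 CPM in the 4 bins above it. Summed Nnmt was 5.04, 16.3 and 28.1 CPM below and 46.4, 92.6, 171 and 135 CPM above it. Summed Fxyd2 was 24.2, 14.7 and 67.8 CPM below and 63.7, 98.3, 315 and 197 CPM above it, so Nnmt and Fxyd2 were lower in the last bin than in the one before. Tmem8, which encodes a membrane protein of the PGAP6 type, was 14.7, 26.8 and 37.4 CPM below and 69.5, 151, 236 and 431 CPM above it. H2-Aa, a class II antigen-presentation gene, ran against them and was 2987, 2464 and 1787 CPM below and 1379, 776, 220 and 194 CPM above the threshold. Deeper cells reach more Cd163 UMIs, and median depth was 15255 UMIs in the lowest and 24950.5 in the highest bin. The part of depth in these orders was not tested.

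**Figure D2:**
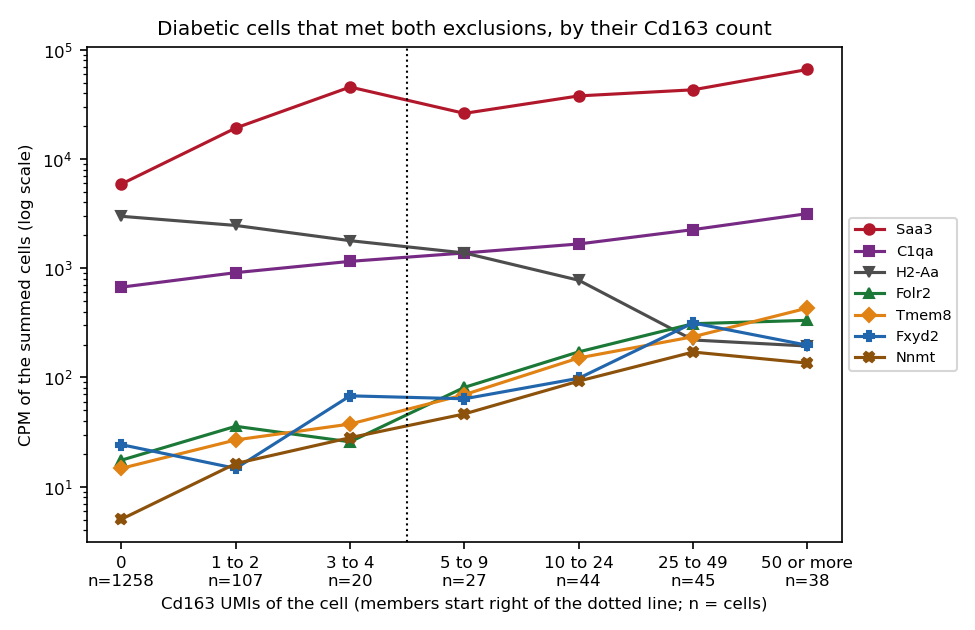
Summed level of 7 genes (CPM, log scale) in diabetic cells that met both exclusions, grouped by their Cd163 UMIs; members lie right of the dotted line and n gives the cells of each group. Tmem8 and C1qa were higher in each group than in the one before it, and H2-Aa was lower in each.

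Over the 154 diabetic members, the Spearman correlation of each gene's CPM with Cd163 CPM was computed for the 3562 genes found in at least 50% of them. All cells share 1 library, both CPM values of a cell share its total, and the correlations are given without a test. Tmem8 was highest with rho 0.56. Next came Il4ra, the interleukin-4 receptor chain, at 0.49, and the complement genes C1qa and C1qc at 0.48 and 0.46. The lysosomal protease Ctsb and the metalloproteinase inhibitor Timp2 both stood at 0.46, and Saa3 and Folr2 at 0.42. Fxyd2 had 0.28 and the leukotriene synthase gene Ltc4s 0.20, and Nnmt was found in too few of the cells to be included. At the low end stood the lymphoid and myeloid surface gene Cd52 at -0.44 and the matrix protein gene Tgfbi at -0.42. All 86 ribosomal protein genes were below 0, with a median of -0.33, and they filled 23 of the 25 lowest places. The median over all 3562 genes was -0.00195. Cd163 CPM had a rho of -0.07 with the cell's depth.

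Against all other diabetic cells, 473 of 11659 measured genes (4.06%) were at least 2-fold higher in Cd163-high cells and 1132 (9.71%) at least 2-fold lower. Genes with fewer than 20 UMIs in the 2 sets of cells together were not taken as measured. The highest genes at 100 CPM or more on a side, besides Nnmt, Folr2 and Cxcl13, were Tmem8 (243 CPM in Cd163-high and 30.0 CPM in other cells), Ltc4s and Cbr2. Ltc4s, which makes leukotriene C4, had 226 CPM in Cd163-high and 29.5 CPM in other cells. Cbr2, a carbonyl reductase known from resident macrophages, had 184 CPM in Cd163-high and 29.0 CPM in other cells. Further down followed the endothelin receptor Ednrb (log2 ratio 2.13), the protease inhibitors Serpinb6a (2.17) and Timp2 (2.12), the chemokines Ccl6 (2.13) and Pf4 (1.88), the surface antigen gene Ly6a (2.02) and the fatty-acid binding protein gene Fabp5 (1.96). Cxcl13, a B cell chemokine, had 366 UMIs in Cd163-high cells and 1 in other cells, but 364 of them lay in 1 cell, which held 49 Cd163 and 1516 Saa3 UMIs.

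The lowest genes included monocyte, siderophore-binding and lipid genes. Plac8, a monocyte gene, had 13.7 CPM in Cd163-high and 384 CPM in other cells, a log2 ratio of -4.79 (-5.26 to -4.39). Lcn2, which binds iron-carrying siderophores, had 43.1 CPM in Cd163-high and 579 CPM in other cells, a log2 ratio of -3.74. The lipase gene Lpl stood at -3.55, the chitinase-like gene Chil3 at -2.35 and the arginine transporter gene Slc7a2 at -2.73. The low value of Lcn2 depends on the cells it is set against, since against the Ccl8/Gas6/Igf1 cells described below it was 0.80 (0.23 to 1.46). Against the 586 cells with C1q it was -1.25, and Slc7a2 turned to 0.06 there.

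**Figure D3:**
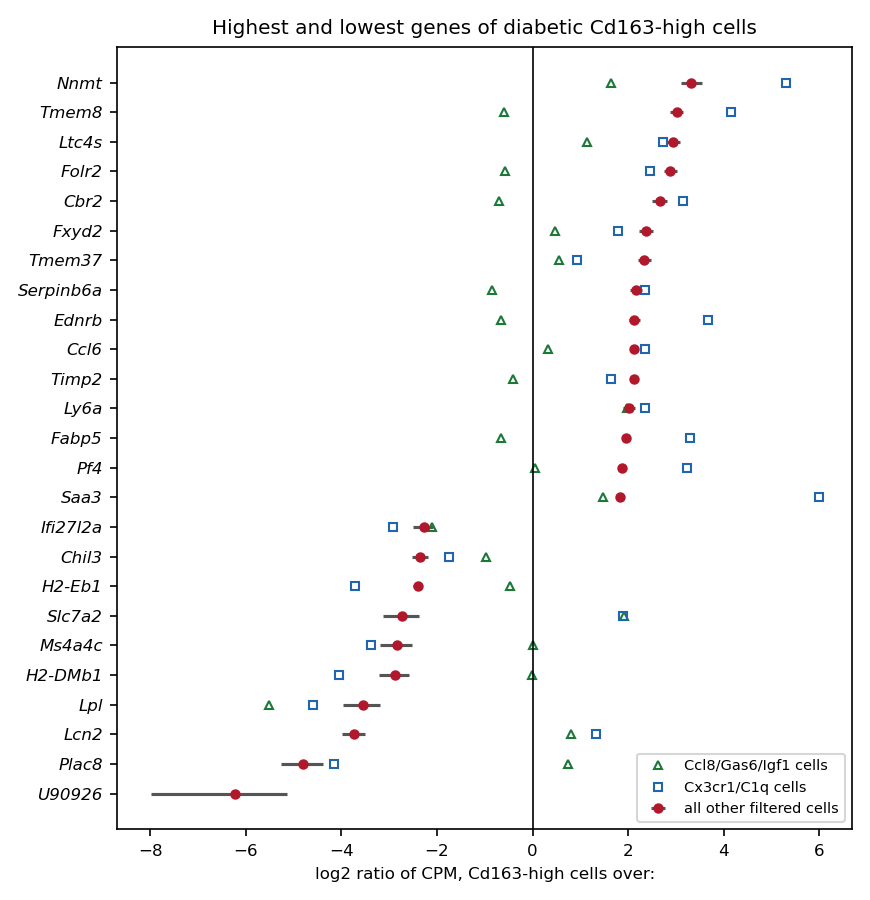
Log2 ratio of CPM, diabetic Cd163-high cells over all other filtered diabetic cells (red, with 95% counting intervals), over Ccl8/Gas6/Igf1 cells (green triangles) and over Cx3cr1/C1q cells (blue squares), for Saa3 and the highest and lowest genes but Cxcl13. Tmem8, Folr2, Cbr2, Ednrb and Fabp5 lay right of 0 against all other cells and left of 0 against the Ccl8/Gas6/Igf1 cells.

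Genes of haem and iron handling were examined because Cd163 brings in haem. Of 23 measured, 8 were at least 1.5-fold higher in Cd163-high than in other diabetic cells and 3 lower, with a median of 0.36. The shares over all genes measured were 11.4% higher and 16% lower. Hmox1, haem oxygenase, had 1986 CPM in Cd163-high and 837 CPM in other cells, a log2 ratio of 1.25 (1.21 to 1.29). Its level in single members ran between 132 and 17328 CPM with a median of 874, so a few cells carried much of it. The haem transporter Slc48a1 had 242 CPM in Cd163-high and 104 CPM in other cells, a log2 ratio of 1.22. Gclm, a subunit of the enzyme that starts glutathione synthesis, stood at 0.98. Tfrc, the transferrin receptor that brings in iron, was lower with 9.52 CPM in Cd163-high and 23.3 CPM in other cells, a log2 ratio of -1.27. The storage gene Fth1 was nearly level at 0.09. Hp encodes haptoglobin, the ligand side of the Cd163 pathway, and had 1967 CPM in Cd163-high and 1241 CPM in other cells. Within the members Hmox1 had a rho of 0.06 with Cd163.

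Acute-phase and complement genes were in part high. Lrg1, a secreted acute-phase glycoprotein, had 483 CPM in Cd163-high and 134 CPM in other cells, and Wfdc21, a small secreted protein with a WAP domain, had 1132 CPM in Cd163-high and 468 CPM in other cells. Of 13 acute-phase genes measured, 5 were at least 1.5-fold higher and 3 lower, where 11.4% of all genes were higher and 16% lower. Of 15 complement genes, 7 were higher and 2 lower with a median of 0.42. C1qa, C1qb and C1qc, the chains of the C1q recognition molecule, had log2 ratios of 1.53, 1.48 and 1.73. C1qa had 0.16 against the 586 other cells chosen for their C1q. The lysosomal list had 6 of 24 genes higher and 1 lower, led by the protease gene Ctsl with 3887 CPM in Cd163-high and 1342 CPM in other cells.

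Scavenger receptors and the genes of resident macrophages were followed next. Marco, a scavenger receptor for bacteria and particles, had a log2 ratio of 2.97, but 2 of the 154 members held 50% of its UMIs. Mertk, a receptor for apoptotic cells, had 1.32, Stab1 1.11 and Mrc1 0.99. Of 17 scavenger genes 5 were at least 1.5-fold higher and 2 lower, where 11.4% of all genes were higher and 16% lower. Of the 13 resident and perivascular genes measured 9 were higher, among them Selenop at 1.34 and Fcgrt, the neonatal Fc receptor, at 1.61. The defining genes Lyve1 and Timd4 had 0 UMIs in all 154 cells, which allows a share of cells with a UMI of up to 1.95%, and so did Vsig4. Lyve1 had a UMI in 0.874% of the other diabetic cells, which is under that limit. Its absence therefore does not set the members apart from those cells. In the Ccl8/Gas6/Igf1 cells described below the share was 12.5%. Genes of alternative activation were mixed. Arg1, arginase, had 3528 CPM in Cd163-high and 1676 CPM in other cells and Il4ra had 465 CPM in Cd163-high and 186 CPM in other cells, while Chil3 was lower. Of 16 such genes 4 were higher and 5 lower.

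Genes induced by glucocorticoids and interleukin-10, which are known to induce Cd163, were examined as 2 lists. Of 18 glucocorticoid-induced genes 5 were at least 1.5-fold higher and 2 lower, with a median of 0.05. The metallothionein Mt1, which binds zinc and copper, had 3296 CPM in Cd163-high and 1319 CPM in other cells. Hsd11b1, which regenerates active glucocorticoid, had 28.0 CPM in Cd163-high and 11.9 CPM in other cells, a log2 ratio of 1.24, and the transcription factor gene Klf9 1.11. Fkbp5, the common readout of the receptor, stood at -0.22 and Per1 at 0.13. Of 20 genes of interleukin-10 and STAT3 signalling 2 were higher and 3 lower. That is near the shares over all genes measured, of which 11.4% were higher and 16% lower.

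Antigen presentation, interferon and inflammatory genes were low. Of 12 class II genes 11 were at least 1.5-fold lower in Cd163-high cells, with a median of -2.17. Ctss, a protease of the same pathway, was the exception at 0.84. The β chain genes H2-Ab1 and H2-Eb1 were both low, with H2-Ab1 at 337 CPM in Cd163-high and 1606 CPM in other cells and H2-Eb1 at 279 CPM in Cd163-high and 1477 CPM in other cells. Of 20 interferon-induced genes 17 were lower and 0 higher. Isg15, a ubiquitin-like interferon product, had 14.0 CPM in Cd163-high and 50.9 CPM in other cells. Of 19 inflammatory cytokines and mediators 15 were lower and 1 higher, with a median of -1.08. Il1b, interleukin-1β, had 2348 CPM in Cd163-high and 4951 CPM in other cells, and Nos2, inducible nitric oxide synthase, 57.4 CPM in Cd163-high and 226 CPM in other cells. Over all genes 16% were at least 1.5-fold lower. Of 30 lists with at least 3 measured genes, 3 had a median at least 1.5-fold higher, namely resident, macrophage and fibroblast genes. The fibroblast median rests on 4 genes with few UMIs, among which Dcn had 6 UMIs in Cd163-high and 320 in other cells and Col3a1 had 11 of its 20 member UMIs in 1 cell. All 7 fibroblast markers together were at 16.4 CPM in Cd163-high and 18.7 CPM in other cells. Another 7 were that much lower, namely class II, G2/M, interferon, inflammatory, classical monocyte, dendritic and endothelial genes. Against the cells with C1q, the inflammatory median was -0.10 and the class II and interferon medians were -2.40 and -1.71.

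**Figure D4:**
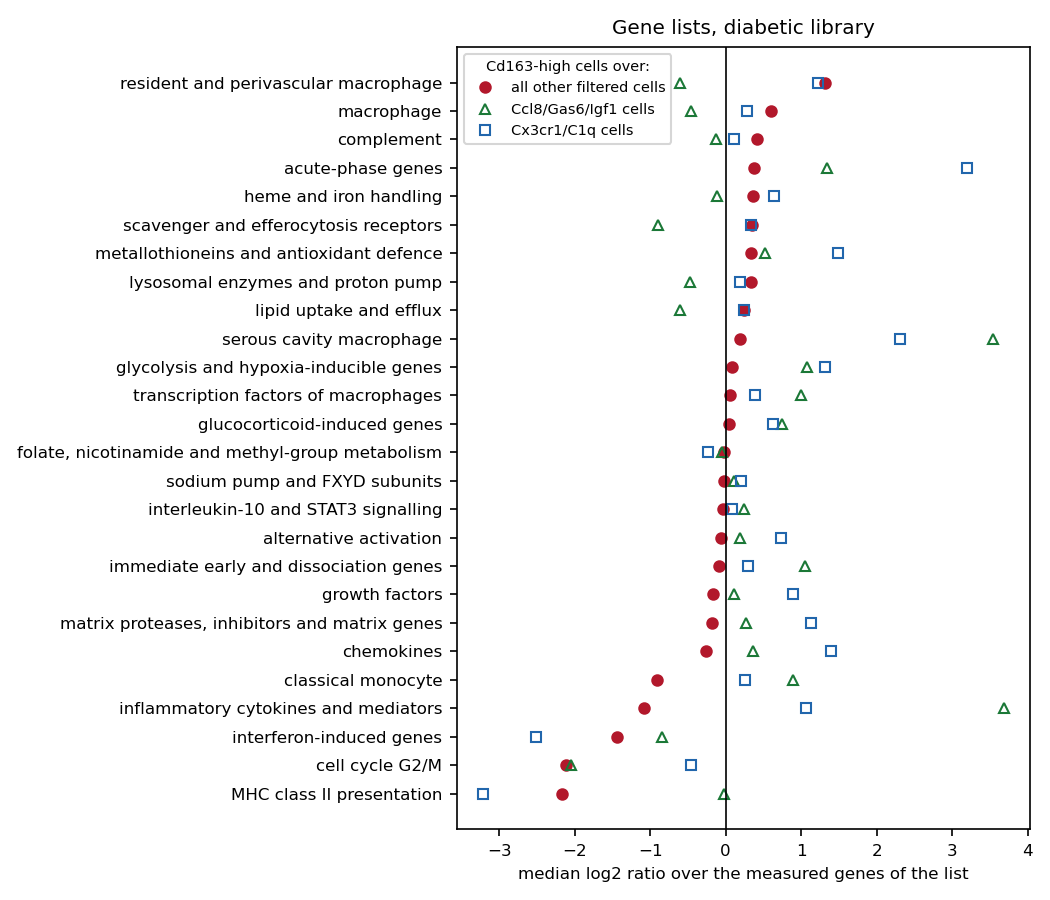
Median log2 ratio over the measured genes of each list, diabetic Cd163-high cells over all other filtered cells (red circles), over Ccl8/Gas6/Igf1 cells (green triangles) and over Cx3cr1/C1q cells (blue squares). Inflammatory genes stood at -1.08 against all other cells and at 3.68 against the Ccl8/Gas6/Igf1 cells, and class II genes at -2.17 and -0.02.

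A first macrophage group for comparison was 48 diabetic cells with 10 or more UMIs of Ccl8, Gas6 and Igf1, a macrophage chemokine, a ligand of the Mertk family and a growth factor. They had a median of 21606.5 UMIs. These genes separated the groups by rule and are no result. Cd163 itself was at 1642 CPM in Cd163-high cells and 1240 CPM in the Ccl8/Gas6/Igf1 cells. Of 8906 genes measured, 5.63% were at least 2-fold higher in Cd163-high cells and 5.84% lower, with a median over all genes of -0.14. Folr2, Tmem8 and Cbr2 were lower in Cd163-high than in Ccl8/Gas6/Igf1 cells, with log2 ratios of -0.57, -0.59 and -0.70. Nnmt, Ltc4s and Ly6a were higher in Cd163-high cells, at 1.65, 1.15 and 1.98. The genes highest against all other cells thus had both signs in this comparison. Fxyd2 was detected in similar shares, 65.6% of Cd163-high and 64.6% of Ccl8/Gas6/Igf1 cells. Thinned to 2000 UMIs per cell, these shares were 23.8% and 20%.

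Inflammatory genes were higher in Cd163-high than in Ccl8/Gas6/Igf1 cells, with a median log2 ratio of 3.68. Of 16 measured, 15 were at least 1.5-fold higher in Cd163-high cells, where 11.8% of all genes were, and 0 were lower. Some of these genes had few UMIs even in the Cd163-high cells, with 25 for Il6, 22 for Lif and 20 for Il1f9. The median was not recomputed with a floor on low counts, so its size is uncertain. Il1b had 2348 CPM in Cd163-high and 191 CPM in Ccl8/Gas6/Igf1 cells, a log2 ratio of 3.61 (3.42 to 3.82). Ptgs2, the inducible prostaglandin synthase, had 606 CPM in Cd163-high and 25.2 CPM in Ccl8/Gas6/Igf1 cells. Areg, the growth factor amphiregulin, had 768 UMIs in Cd163-high cells and 2 UMIs in all 48 Ccl8/Gas6/Igf1 cells. Glycolysis and hypoxia-inducible genes were higher for 17 of 19 genes, with a median of 1.07, and classical monocyte genes for 9 of 10. Immediate early and dissociation genes, which can be switched on while tissue is digested, were also higher for 13 of 18, with a median of 1.06. Their part in the other differences was not tested. Among the acute-phase genes Saa3 had 45481 CPM in Cd163-high and 16410 CPM in Ccl8/Gas6/Igf1 cells, Hp 1967 CPM in Cd163-high and 308 CPM in Ccl8/Gas6/Igf1 cells, and Wfdc21 1132 CPM in Cd163-high and 130 CPM in Ccl8/Gas6/Igf1 cells.

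Uptake genes were for a large part lower in the same comparison. Of 16 scavenger genes 10 were at least 1.5-fold lower in Cd163-high cells and 1 higher, where 18% of all genes were lower. Mrc1 had 609 CPM in Cd163-high and 1263 CPM in Ccl8/Gas6/Igf1 cells, and Stab1 had 218 CPM in Cd163-high and 666 CPM in Ccl8/Gas6/Igf1 cells. Of 24 lysosomal genes 9 were lower and 0 higher, with the protease gene Ctsd at 1431 CPM in Cd163-high and 2862 CPM in Ccl8/Gas6/Igf1 cells. Lpl had 17.5 CPM in Cd163-high and 806 CPM in Ccl8/Gas6/Igf1 cells, a log2 ratio of -5.51. Hpgds, which makes prostaglandin D2, had 6.54 CPM in Cd163-high and 101 CPM in Ccl8/Gas6/Igf1 cells, and Ccl12, a monocyte chemokine, 24.7 CPM in Cd163-high and 216 CPM in Ccl8/Gas6/Igf1 cells. C1qa was at -0.89 and Apoe, the lipid carrier, at -0.84. In summed level, class II genes did not separate the groups, with 1 of 11 higher, 0 lower and a median of -0.02. The share of cells with an H2-Aa UMI did differ, at 35.1% of Cd163-high and 60.4% of Ccl8/Gas6/Igf1 cells. After thinning, H2-Aa was found in 17.9% of Cd163-high and 29.5% of Ccl8/Gas6/Igf1 cells.

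A further macrophage group of 65 diabetic cells was set by 3 or more Cx3cr1 and 10 or more C1q UMIs and by meeting no other rule. Its median depth was 16749 UMIs. Of 8866 genes measured, 7.32% were at least 2-fold higher in Cd163-high cells and 7.38% lower. C1qa was at 2220 CPM in Cd163-high and 2401 CPM in Cx3cr1/C1q cells. Saa3 had 45481 CPM in Cd163-high and 715 CPM in Cx3cr1/C1q cells, a log2 ratio of 5.99 (5.89 to 6.09). Nnmt had 408 UMIs in Cd163-high and 3 in Cx3cr1/C1q cells, a log2 ratio of 5.30 (3.97 to 7.81). Of 10 acute-phase genes 8 were at least 1.5-fold higher, against 15.1% of all genes, and 0 lower, and of 16 metallothionein and antioxidant genes 13 were higher and 0 lower. Hmox1 had 1986 CPM in Cd163-high and 300 CPM in Cx3cr1/C1q cells, and Arg1 3528 CPM in Cd163-high and 370 CPM in Cx3cr1/C1q cells. Class II genes were lower for 8 of 11, with a median of -3.21, and interferon-induced genes for 20 of 20, where 19.9% of all genes were lower. H2-Ab1 had 337 CPM in Cd163-high and 3492 CPM in Cx3cr1/C1q cells. Ccr2, the monocyte chemokine receptor, had 179 CPM in Cd163-high and 697 CPM in Cx3cr1/C1q cells.

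The 154 diabetic members were not uniform. Class II transcripts lay in a minority, since 28 cells had 5 or more H2-Aa UMIs and held 98.1% of the H2-Aa UMIs of all members. This threshold was set after seeing the data. Few cells were near it, with 1 at 3 or 4 and 4 at 5 to 9 H2-Aa UMIs, and 100 cells had none. The 28 cells and the other 126 had median depths of 19672.5 UMIs in the 28 and 21851 UMIs in the others. The 28 cells also had less Cd163, with a median of 12 Cd163 UMIs against 32.5 in the other members and summed levels of 1097 CPM against 1758 CPM. Its part in the differences below was not tested. H2-Ab1 followed H2-Aa with 1827 CPM in the 28 cells and 17.7 CPM in the other members, and Ccr2 had 722 CPM in the 28 cells and 62.8 CPM in the other members. Saa3 was lower in the 28 cells, at 18811 CPM against 51189 CPM in the other members, a log2 ratio of -1.44 (-1.47 to -1.42). Nnmt had 15.2 CPM in the 28 cells and 144 CPM in the other members, and Ltc4s 23.6 CPM in the 28 cells and 269 CPM in the other members. Of the 29 cells with 5 or more Nnmt UMIs and the 40 with 5 or more Ltc4s UMIs, 0 were among the 28, while 18 cells had 5 or more of both. The 28 made up 18.2% of all members. Median depth was 24803 UMIs in the 29 cells and 25832 UMIs in the 40, and its part was not tested.

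C1q and pan-macrophage genes differed less across this division. C1qa had 2006 CPM in the 28 class II cells and 2266 CPM in the other members, Csf1r 734 CPM in the 28 cells and 624 CPM in the other members, and Mrc1 734 CPM in the 28 cells and 582 CPM in the other members. Fxyd2 had 101 CPM in the 28 cells and 205 CPM in the other members, a log2 ratio of -1.01 (-1.43 to -0.64), while it was detected in 60.7% of the 28 cells and 66.7% of the others. Hmox1 had 685 CPM in the 28 cells and 2264 CPM in the other members. Pf4 had 2754 CPM in the 28 cells and 8901 CPM in the other members. Both were thus lower where class II transcripts were present. The monocyte gene Ms4a4c had 106 CPM in the 28 cells and 5.06 CPM in the other members, and the membrane gene Tmem176b had 494 CPM in the 28 cells and 51.6 CPM in the other members. Some genes of other cell types also had higher summed levels in the 28 cells, with the neutrophil genes resting on 1 cell. Ighm, the immunoglobulin heavy chain of B cells, had 142 CPM in the 28 cells and 1.08 CPM in the other members, and 42.9% of the 28 cells and 1.59% of the others had a UMI. The neutrophil gene S100a9 had 2210 CPM in the 28 cells and 105 CPM in the other members, and Retnlg had 292 CPM in the 28 cells and 5.78 CPM in the other members. Of the 1310 S100a9 and 173 Retnlg UMIs in the 28 cells, 1303 and 172 lay in the 1 cell described below. An S100a9 UMI was found in 17.9% of the 28 cells and 26.2% of the others, and a Retnlg UMI in 7.14% and 1.59%. The part of cells of other types in this division was not tested. When cells with 5 or more H2-Aa UMIs were left out on both sides of the comparison with other diabetic cells, Saa3 had a log2 ratio of 1.43, Nnmt 2.99 and Folr2 2.85. The acute-phase median was -0.40 and Hp had 0.36 in that comparison.

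**Figure D5:**
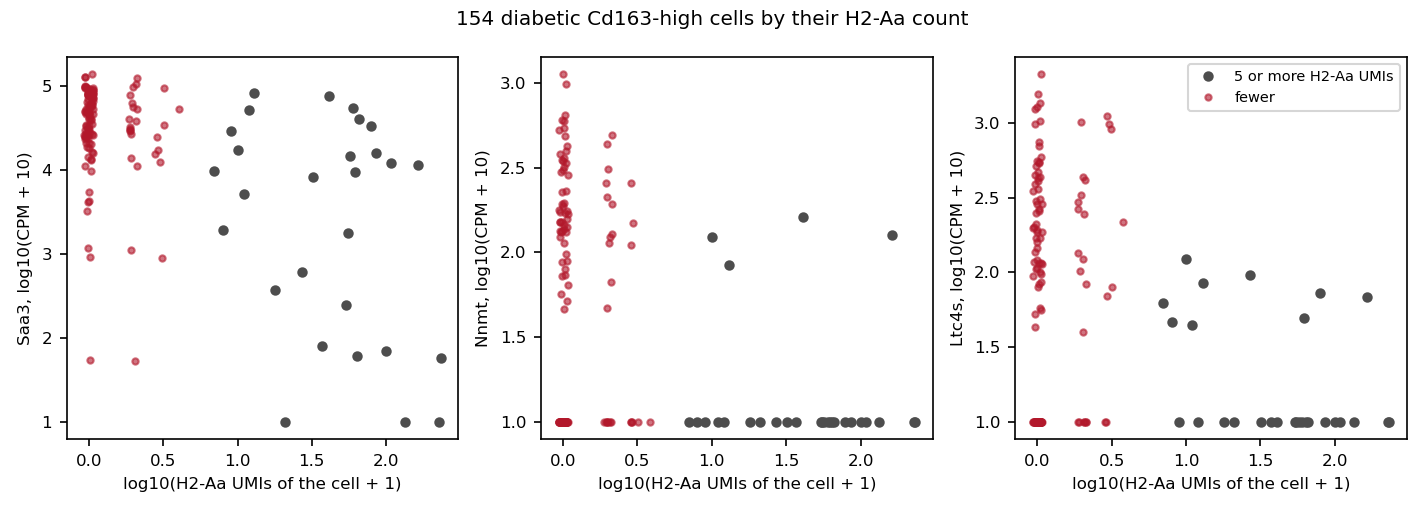
Level of Saa3, Nnmt and Ltc4s (log10 of CPM plus 10) in each of the 154 diabetic Cd163-high cells, against log10 of the cell's H2-Aa UMIs plus 1; grey points are the 28 cells with 5 or more H2-Aa UMIs and red points the other 126, shifted slightly sideways. Nnmt was detected in 4 of the 28 cells and in 66 of the others, and Ltc4s in 9 and 75.

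Neutrophil genes were spread unevenly. The summed level of 10 such genes had a median of 475 CPM in the diabetic Cd163-high cells, with a range of 61.7 to 49411 CPM, and of 313 CPM in the other diabetic cells, and 2 of the 10 genes were at 0 in the members. The deepest member, with 48066 UMIs, held 1303 of the members' 1601 S100a9 UMIs (81.4%) and 172 of 189 Retnlg UMIs (91.0%), together with 41 Cd163 and 113 C1qa UMIs. Retnlg, a secreted product of neutrophils, had a log2 ratio of 1.33 against other diabetic cells and of -4.89 without the 2 members that had 50 or more UMIs of Retnlg, G0s2 and S100a9. Scrublet marked 4 diabetic and 2 non-diabetic cells as doublets and none of the members. Whether the caller worked on these libraries was not checked, so doublets may remain.

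The non-diabetic members numbered 6 and held 18, 8, 6, 6, 6 and 5 Cd163 UMIs. In the same order of cells, Saa3 had 0, 0, 0, 27, 1 and 6 UMIs, and Folr2 had 3, 0, 7, 6, 0 and 3. C1qa had 0, 33, 35, 8, 21 and 4 UMIs, Csf1r was present in all 6, and Nnmt had 3 UMIs in 1 cell. These cells thus carried macrophage genes with little Saa3. Saa3 had 45481 CPM in the 154 diabetic members and 552 CPM in the 6 non-diabetic members, a log2 ratio of 6.34 (5.88 to 6.90). Outside the Cd163-high cells the Saa3 level was 12708 CPM in diabetic and 179 CPM in non-diabetic cells, a log2 ratio of 6.15. The value outside the Cd163-high cells lay within the interval for the members, and whether the 2 differ was not tested. Folr2 was at 245 CPM in diabetic and 308 CPM in non-diabetic members, with an interval of the log2 ratio from -0.98 to 0.41. Hmox1 had 1986 CPM in diabetic and 1850 CPM in non-diabetic members, with an interval from -0.16 to 0.38. Hp had 6613 UMIs in the diabetic members and 1 in the non-diabetic ones, or 1967 and 16.2 CPM, with an interval of the log2 ratio from 4.44 to 12.2. Outside the Cd163-high cells Hp was at 1241 CPM in diabetic and 422 CPM in non-diabetic cells. Mrc1 was lower in the diabetic members, at 609 CPM in diabetic and 1201 CPM in non-diabetic members. In the single non-diabetic cell with 29 Isg15 UMIs lay nearly all of that gene's 30 UMIs, so the Isg15 level of the non-diabetic members rests on 1 cell.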

How the data were processed

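The deposited values are counts of UMIs per gene and cell barcode in filtered 10x matrices of 31053 genes. Per the file headers the authors made them with Cell Ranger 3.0.2, and per the submitters' processing notes the build was mm10. The annotation release is not given in the sources used here. Gene positions were taken from GENCODE M21 and promoters from RefSeq.

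A barcode was kept as a cell with 500 or more genes and mitochondrial UMIs below 10%. Levels are summed CPM, and intervals are 95% (exact binomial for shares, exact conditional binomial for ratios). For ratios, 0.5 UMI was added to each count before division by the totals, and was not scaled to them. At few UMIs this shifts a ratio in favour of the side with the smaller total, so such ratios are not centred on 0. In the non-diabetic library, G0s2 had 0 UMIs in Cd163-high and 66 in other cells, yet a log2 ratio of 0.91. With 1 library per group nothing was tested and no p-value is given. Detection was compared after 20 random draws of 2000 UMIs per cell. Scrublet (scanpy 1.11.5) marked 0.228% of diabetic and 0.178% of non-diabetic cells. These low shares were not compared with an expected doublet rate, and no doublet was removed. Python 3.11.15 was used, with BLAST 2.17.0 for near-identical transcripts (95% over 200 bases), and edgeR 4.0.16 and DESeq2 1.42.0 only for alternative scaling of the counts. The interval code was tested on simulated data.

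Genes were named by a rule: the markers and rule genes, the 15 highest and 10 lowest at 100 CPM or more, up to 4 per list, the extremes of the other comparisons, and the extremes of the correlation with Cd163. Others in the text, namely Csf1r, Ctss, Fkbp5, Fth1, H2-Aa, Dcn, Col3a1, Nos2, Per1, Selenop and Tmem176b and the absent Lyve1, Timd4 and Vsig4, and the class II division of the members, were chosen after their values were seen. The members and gene lists were chosen with earlier results of these data known. Of 129 genes named by the rule, 25 share at least 200 bases at 95% identity with another gene, among them Folr2 and Ctla2a, and their counts are uncertain. The values of 2 named genes are not reported here. Alternatives changed the thresholds, filters, scaling and comparison cells.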

Additional observations from a re-analysis of the deposited data

Results flagged for a closer look

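Barcodes outside the cell filter were not used above, yet part of them carried much Cd163. Of 459 diabetic barcodes that failed the filter, 35 (7.63%, interval 5.37% to 10.4%) had 5 or more Cd163 UMIs, against 4 of 903 (0.443%, 0.121% to 1.13%) in the non-diabetic library. The exclusion sums were not applied here. Without them, 189 of 1755 filtered diabetic cells and 9 of 1123 filtered non-diabetic cells had 5 or more Cd163 UMIs. The 35 barcodes had a median of 4450 UMIs and between 12.1% and 36.3% mitochondrial UMIs. Their summed levels were 15564 CPM for Saa3, 134 CPM for Folr2 and 1341 CPM for C1qa.

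For 7 of the genes named by the rule, the log2 ratio of Cd163-high over other cells had opposite signs in the 2 libraries. In each library the difference was at least 2-fold and the interval did not hold 0. Genes with a smaller difference in either library were not counted. This difference between the libraries was not tested, and 6 cells make up the non-diabetic side. Arg1 had a log2 ratio of 1.07 in the diabetic and -1.25 in the non-diabetic library, where 4 of the 6 cells had a UMI. Ly6a had 2.02 and -2.15 in these libraries, with a UMI in 1 non-diabetic cell. Tfrc, the transferrin receptor, had -1.27 and 2.54, with UMIs in 2 of the 6 cells. The interferon-induced genes Ifi47, Phf11d and Rtp4 had -1.97, -1.14 and -2.37 in the diabetic library and 2.62, 2.57 and 1.36 in the non-diabetic one, each with UMIs in 1 of the 6 cells. Ctla2a had -1.28 and 5.58 in these libraries, again from 1 non-diabetic cell.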

How the results depend on the processing

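With 19 alternatives, the log2 ratio of Cd163-high over other diabetic cells stayed between 1.43 and 2.501 for Saa3, 1.71 and 3.78 for Folr2, 2.99 and 4.05 for Nnmt, and 1.74 and 2.86 for Fxyd2. The diabetic share was 10.8% without the exclusion sums, and the non-diabetic share was 0.178% at 8 Cd163 UMIs. Genes at least 2-fold higher numbered 2922 with no UMI minimum, 228 at 100 UMIs or more and 309 against the other cells with C1q, a comparison chosen after seeing the data. The 2922 can include genes without a UMI in Cd163-high cells, because 0.5 UMI is added to counts over totals of 3362122 and 27072925 UMIs. This count is therefore not read as a result. Genes at least 2-fold lower numbered 520 at 100 UMIs or more and 598 against the cells with C1q. List medians at least 1.5-fold higher numbered 5 without the exclusion sums, 5 against cells with no Cd163 UMI and 5 against the cells with C1q, where those that much lower numbered 3. Against the cells with C1q the sign turned for Ctla2a (0.89), Cxcl3 (0.29), Il1a (0.14), Mmp12 (0.17), S100a8 (0.33), Slc7a2 (0.061), Slpi (0.53) and Sparc (0.97). Without the deepest 5% of cells it turned for Ctla2a (0.70), Ctsk (1.63), Sparc (1.502) and Retnlg (-1.68). Retnlg also turned to -4.89 without the members rich in neutrophil genes, -2.30 without cells of 5 or more H2-Aa UMIs and -1.62 as the mean of the cells' own CPM. Diabetic over non-diabetic members without the exclusion sums, the sign turned for Gpnmb (-0.18), Ly6a (-1.30) and Mmp12 (-3.56). The cause was not tested. No paired analysis was possible because each group has 1 library. Depth limits the 6 non-diabetic cells most, with 61633 UMIs in all, against 3362122 in the diabetic members.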
